A study of Mus musculus with 64 samples.

Results

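The niche ligands of the testis described here are 10 of the 26385 genes listed in the RNA-Seq tables: Gdnf, Kitl, Cxcl12, Fgf2, Bmp4, Inhba, Lif, Csf1, Wnt5a and Wnt6. They were chosen by name, as secreted signals that somatic cells of the testis send to germ cells or to each other, and each row was found by its gene symbol. Earlier results of these data were known when they were chosen, so shares of members set beside shares of all genes are a description. All 10 had reads in each of the 27 whole testis libraries and all 10 passed the filter on low counts in every whole testis comparison. Their levels are given as RPKM, the authors' read count scaled to exon length in kilobases and to the mapped reads of the library, and their differences as log2 fold changes fitted to the deposited read counts.

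The series asked what the loss of the chromatin protein MORC1 does to transcripts of the mouse male germ line, and it set Morc1 mutants beside mutants of Dnmt3l, a partner of the de novo DNA methyltransferases, and of Miwi2 (Piwil4), a nuclear Piwi protein. Each RNA-Seq library came from 1 mouse. Morc1tg mice were FVB/N animals in which a tyrosinase transgene sits in the Morc1 locus with loss of exons 2 to 4, so transcript from the other exons can still be counted. Whole testis of the Morc1 line was sampled at P10.5 from 3 Morc1tg/tg mice, labelled KO, with 2 Morc1tg/+ mice and 1 wild type mouse as controls, and at P14.5 from 3 Morc1tg/tg and 3 Morc1tg/+ mice. A preliminary set at P10.5 held 1 wild type and 1 Morc1tg/+ library, which entered only the alternative fits and the description over all 27 libraries. The Dnmt3l line gave 3 Dnmt3l-/-, 3 heterozygous and 3 wild type testes at P10.5, and the Miwi2 line gave 2 testes labelled Miwi2-/- and 2 heterozygous testes at P10.5. The sources used here do not name the strain or allele of these last lines, so a difference in level between lines cannot be told apart from strain and from batch. Sorted germ cells came from the Morc1 line at E16.5, E18.5 and P2.5, from a mixed background carrying Oct4-IRES-Gfp and sorted on that reporter, and at P10.5 by low side scatter, high EPCAM and absence of a class I histocompatibility antigen. Whole testis RNA was made into libraries with the TruSeq v2 kit and sorted RNA with an Ovation kit with depletion of ribosomal RNA, so tissue and kit cannot be told apart.

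The seminiferous tubule is lined by Sertoli cells, which touch the germ cells, and is wrapped by peritubular cells, while Leydig cells, vessels and macrophages lie between the tubules. GDNF from Sertoli and peritubular cells acts through RET and its co-receptor GFRA1 on undifferentiated spermatogonia and favours their self-renewal. KIT ligand, the product of Kitl, acts through KIT on differentiating spermatogonia, and CXCL12 acts through CXCR4 and the scavenging receptor CXCR7. FGF2 signals through the FGF receptors, BMP4 and activin A, a dimer of the Inhba product, through receptor serine kinases, and LIF through LIFR and IL6ST. CSF1 is the growth factor of macrophages and binds CSF1R, and WNT5A and WNT6 bind Frizzled receptors, WNT5A also ROR1, ROR2 and RYK.

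Promoter sequence was available from RefSeq, on GRCm38.p6, for 9 of the 10 members. The 250 bases before the transcript start are printed for Gdnf, Kitl and Wnt6, which were higher together in Dnmt3l-/- testes by all-gene scaling (Kitl and Wnt6 turned sign when libraries were scaled to Sertoli markers), and for Lif, which was the lower member there, 5′ to 3′ on the gene's own strand, with matches on either strand to the letters TATAAA, to the CCAAT box and to the GC box letters GGGCGG in capitals.
Gdnf, chr15:7809798-7810047, plus strand: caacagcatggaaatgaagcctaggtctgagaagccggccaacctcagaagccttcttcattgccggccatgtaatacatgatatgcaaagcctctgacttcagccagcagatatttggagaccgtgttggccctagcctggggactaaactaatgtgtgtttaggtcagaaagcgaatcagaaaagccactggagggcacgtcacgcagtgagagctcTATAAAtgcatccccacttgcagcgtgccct
Kitl, chr10:100015571-100015820, plus strand: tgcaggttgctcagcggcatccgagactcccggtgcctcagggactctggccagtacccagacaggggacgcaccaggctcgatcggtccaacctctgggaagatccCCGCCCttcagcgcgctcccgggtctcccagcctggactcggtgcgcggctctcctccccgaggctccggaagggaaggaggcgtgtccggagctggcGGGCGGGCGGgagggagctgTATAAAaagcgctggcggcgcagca
Wnt6, chr1:74771642-74771891, plus strand: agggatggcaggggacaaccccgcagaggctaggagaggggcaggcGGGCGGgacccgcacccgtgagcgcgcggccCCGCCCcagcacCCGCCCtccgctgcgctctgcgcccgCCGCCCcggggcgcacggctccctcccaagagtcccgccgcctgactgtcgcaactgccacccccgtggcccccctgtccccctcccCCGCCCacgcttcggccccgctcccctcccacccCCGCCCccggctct
Lif, chr11:4257318-4257567, plus strand: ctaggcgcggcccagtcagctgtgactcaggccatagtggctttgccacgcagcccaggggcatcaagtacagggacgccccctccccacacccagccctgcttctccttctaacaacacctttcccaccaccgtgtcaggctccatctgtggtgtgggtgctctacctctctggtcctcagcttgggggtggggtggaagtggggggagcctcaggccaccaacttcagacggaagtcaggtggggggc
The Gdnf window held 7 CpG dinucleotides at 50.8% GC and 1 TATAAA match close to the start. The Kitl window held 23 CpG dinucleotides at 69.2% GC, 1 TATAAA and 3 GGGCGG matches, of which the last 2 overlap. The Wnt6 window held 28 CpG dinucleotides at 79.6% GC and 6 GGGCGG matches, and the Lif window held 6 CpG dinucleotides at 63.6% GC and none of the 3 motifs. Over 32851 windows of this length, GC had a median of 52.4%, and TATAAA was in 12.4%, CCAAT in 33.8% and GGGCGG in 32.7% of them. Of the 10 member windows, which include a second start of Gdnf, 3 held TATAAA, 1 held CCAAT and 6 held GGGCGG. These matches describe the letters and say nothing of which factor binds.

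On mm9, the build of the files, Gdnf lies at chr15:7761011-7787575 on the plus strand, Kitl at chr10:99478264-99563047 on the plus strand, Wnt6 at chr1:74818466-74831893 on the plus strand and Lif at chr11:4157560-4172517 on the plus strand. Cxcl12 lies at chr6:117118553-117131385, Inhba at chr13:16103684-16119044 and Wnt5a at chr14:29317936-29340633, all on the plus strand, and Bmp4 at chr14:47003195-47010344 and Csf1 at chr3:107543966-107563387, both on the minus strand. Fgf2, at chr3:37211441-37304299 on the plus strand, shares 242 of its 1802 exon bases (13.4%) with Nudt6, a gene of the opposite strand. Its exons also share 55 bases with Cetn4 and 32 bases with Bbs12. Bmp4 shares 89 exon bases with Gm15217 and Wnt5a shares 358 with Gm2670, and the other 7 members share none. The study's methods give default settings for HTSeq, which count by strand, but the TruSeq v2 kit does not mark the strand of the RNA, so reads of Fgf2 and of Nudt6 in their shared bases cannot be told apart in whole testis.

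Depth was 22509570 to 42137954 reads on genes in the whole testis libraries (median 28815956) and 2413679 to 14918478 in the 20 sorted libraries (median 7542692). The 3 Dnmt3l-/- libraries held 0.037 to 0.0464 RPKM of Dnmt3l against 0.374 to 1.02 RPKM in the 6 controls, and Morc1 stood at 2.41, 2.06 and 2.32 RPKM in Morc1tg/tg testes of P10.5 against 10.2 RPKM in the wild type and 6.29 and 6.46 RPKM in the heterozygous libraries. Piwil4 went against its label: it stood at 10.7 and 11.5 RPKM in the libraries labelled Miwi2-/- and at 6.65 and 7.01 RPKM in the heterozygous ones, and the sources do not say whether the counted exons lie outside the altered part. Directions given for the Miwi2 line follow the labels and would turn if these were crossed. Markers of neighbouring tissue also stood apart. The summed epididymis list was 0.0443 to 34.3 RPKM among the 6 Dnmt3l controls and under 1 RPKM in all 3 Dnmt3l-/- libraries. This difference came from Crisp1 alone, which averaged 12 RPKM in controls and 0.0115 RPKM in Dnmt3l-/- libraries. Lcn8 (0.0197 against 0.0841 RPKM), Lcn9 (0.00558 against 0.0097 RPKM) and Rnase10 (0.0112 against 0.0274 RPKM) were low in both and ran the other way. In the Miwi2 line the summed fat list was 25.1 and 28.2 RPKM in heterozygous libraries and 5.89 and 6.09 RPKM in those labelled Miwi2-/-. The epididymis list was 2.59 and 2.9 against 10.1 and 10.3 RPKM, nearly all of it Crisp1 (2.67 against 10.1 RPKM on average).

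In whole testis of control mice of the Morc1 line at P10.5, the members spanned a wide range of levels per length. Wnt6 was the highest, at 73.7 RPKM on average over 3 libraries (73.1, 72.8 and 75.3 RPKM), and Kitl followed with 47.5, 53.6 and 48.6 RPKM. These ranges did not overlap. Cxcl12 (12.7 to 14.9 RPKM) and Wnt5a (10.6 to 12 RPKM) came next and did not overlap each other. Gdnf, at 6.13 to 6.73 RPKM, lay above Csf1, at 4.68 to 4.81 RPKM. Bmp4 (3.67 to 4.07 RPKM) and Inhba (2.86 to 4.12 RPKM) overlapped, so their order is within the spread between mice. Fgf2 (0.814 to 1.72 RPKM) and Lif (0.331 to 0.375 RPKM) were the lowest, with 33 to 69 and 38 to 49 reads a library. At P14.5 Kitl averaged 34.7 RPKM and Wnt6 27.8 RPKM in Morc1tg/+ testes, with ranges that overlapped, so their order there is within the spread between mice.

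**Figure D1:**
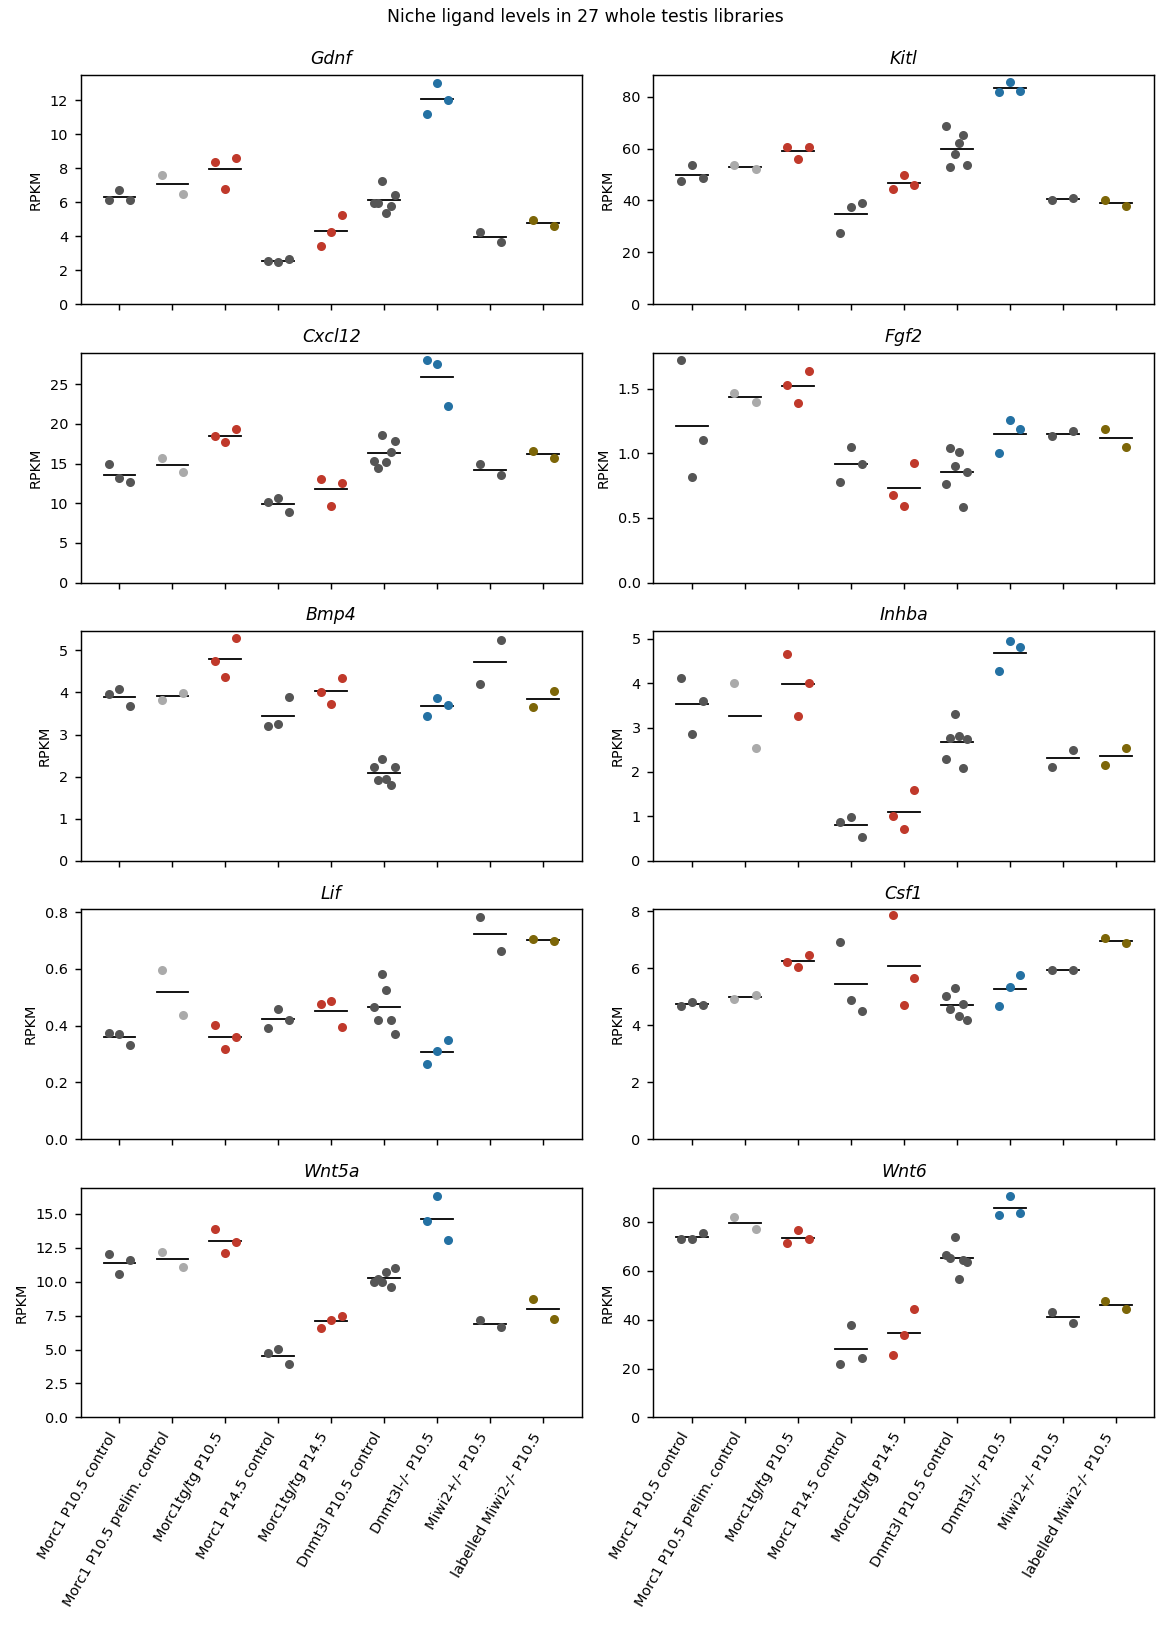
Levels of the 10 ligands in whole testis, in RPKM, 1 panel a gene, with 1 dot for each library by line, genotype and day and a line at each group mean. Gdnf reaches 11.2 to 13 RPKM in Dnmt3l-/- testes, Inhba is lowest at P14.5, and Wnt5a is lowest in Morc1tg/+ testes of P14.5.

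Over all 27 whole testis libraries, Inhba varied most, from 0.544 to 4.95 RPKM (highest over lowest 9.1), and Csf1 least, from 4.18 to 7.88 RPKM (1.89). Gdnf ran from 2.48 RPKM, in a Morc1tg/+ testis of P14.5, through a median of 5.99 to 13 RPKM, in a Dnmt3l-/- testis. Kitl ran from 27.6 through 52.9 to 85.6 RPKM and Wnt6 from 21.8 through 65.2 to 90.5 RPKM. The other members ran from 8.85 to 28 RPKM (Cxcl12), 3.9 to 16.3 RPKM (Wnt5a), 1.79 to 5.28 RPKM (Bmp4), 0.582 to 1.72 RPKM (Fgf2) and 0.265 to 0.784 RPKM (Lif).

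As a description over these 27 libraries, which share lines and days, the gene among 12826 whose log2 level followed Gdnf most closely was Sall2 (Pearson r = 0.972). The nearest for Kitl was Me1 (0.928), for Cxcl12 Cpxm1 (0.963), for Bmp4 Cd59a (0.896), for Inhba Fam115c (0.971) and for Lif Zfp712 (0.885). The nearest for Wnt5a was Slc44a1 (0.985) and for Wnt6 Emilin3 (0.982). Fgf2 had the lowest such value, 0.822 with Gabra3 among 12827 genes. For Csf1 the nearest gene was its own receptor, Csf1r (0.888).

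The comparison of Morc1tg/tg with control testes at P10.5 asked which transcripts differ in the mutant testis. Csf1, Cxcl12, Gdnf and Kitl were higher, by 1.19- to 1.38-fold, and no member was lower. With bulk tissue, more cells of a type and more RNA per cell cannot be told apart, and neither can fewer cells and less RNA per cell. Cxcl12 stood between 17.7 and 19.4 RPKM in the 3 Morc1tg/tg testes and at 14.9 (wild type), 13.2 and 12.7 RPKM in controls, a log2 fold change of 0.46 (SE 0.066, edgeR quasi-likelihood test, Benjamini-Hochberg adjusted p = 0.00127). All mutant libraries lay above all controls. Csf1 stood at 6.21, 6.05 and 6.48 RPKM against 4.68, 4.81 and 4.71 RPKM, again without overlap, with a log2 fold change of 0.42 (SE 0.0642, adjusted p = 0.00184). Gdnf stood at 8.4, 6.8 and 8.61 RPKM against 6.13, 6.73 and 6.14 RPKM (log2 fold change 0.34, SE 0.0926, adjusted p = 0.0313). The lowest mutant value of Gdnf was just above the highest control, and the preliminary wild type library, which was not in the fit, was at 7.61 RPKM. Kitl stood at 60.5, 56.1 and 60.4 RPKM against 47.5, 53.6 and 48.6 RPKM (log2 fold change 0.26, SE 0.0603, adjusted p = 0.0176). The calls of Gdnf and Kitl were lost without Morc1tg/tg replicate 3 (adjusted p = 0.16 and 0.0979), without the wild type library (0.0861 and 0.0618) and without Morc1tg/+ replicate 3 (0.107 and 0.084), that of Gdnf also without Morc1tg/tg replicate 1 (0.0738). Those of Cxcl12 and Csf1 passed under all 13 alternatives, in which leaving out the wild type library and using heterozygous controls alone are the same fit.

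The other 6 members did not pass. Bmp4 (4.74, 4.37 and 5.28 against 3.95, 4.07 and 3.67 RPKM, adjusted p = 0.0543) and Wnt5a (13.9, 12.1 and 12.9 against 12, 10.6 and 11.6 RPKM, adjusted p = 0.054) lay just outside the threshold, with no overlap between groups. With no filter on low counts both passed (adjusted p = 0.0467 and 0.0424). Wnt6, the most abundant, stood at 71.3, 76.6 and 72.8 RPKM against 73.1, 72.8 and 75.3 RPKM, with a 95% interval of the log2 fold change from -0.1 to 0.12. Fgf2, Inhba and Lif overlapped, with log2 fold changes of 0.35, 0.18 and 0.01. Over all 15165 genes tested, 6.08% were called higher and 9.26% lower, beside 4 and 0 of the 10 members, and the median log2 fold change was 0.29 over the members and 0.01 over all genes. When libraries were scaled to the Sertoli markers, by the median ratio over the 9 genes, in place of all genes, the median of all genes moved to -0.16 and that of the members to 0.12, 169 genes were called higher and 4299 lower, and of the members Cxcl12 (0.29) and Csf1 (0.25) were still called.

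Among 32 receptors tested at P10.5, 5 were called higher and 3 lower. Csf1r, the receptor of CSF1, was higher (log2 fold change 0.6, adjusted p = 0.0304), and so were Fgfr2 (0.36), Ror1 (0.35), Fzd1 (0.29) and Il6st (0.23). Kit, the receptor of KIT ligand, was lower (-0.5, adjusted p = 0.00523), as were Fgfr3 (-0.59) and Acvr2b (-0.42). Ret and Gfra1, through which GDNF acts, had log2 fold changes of 0.05 and 0.08 and were not called. Of 13 antagonists and partner subunits, Inhbb (0.23) and Frzb (0.24) were called higher and none lower. Of 17 responsive genes, Id2 (0.32), Id3 (0.35) and Lef1 (0.5) were called higher and Nkd1 (-0.35) lower.

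Marker lists moved at the same age. Of 6 macrophage markers 3 were called higher, with a summed level of 32.7 to 44.2 RPKM in Morc1tg/tg and 27.2 to 30.1 RPKM in control testes. Of 9 Sertoli markers 4 were called higher (summed 4750 to 5280 against 4360 to 4540 RPKM), and of 5 germ cell markers 3 were called lower (169 to 192 against 256 to 262 RPKM). Peritubular and stromal markers were called higher in 3 of 9 cases, endothelial ones in 2 of 6 and Leydig ones in 1 of 6. All 5 early meiosis markers and all 3 markers of differentiating spermatogonia were called lower. Their part in the differences of the ligands was not tested.

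At P14.5, Gdnf, Wnt5a and Kitl were higher and no member was lower in Morc1tg/tg than in Morc1tg/+ testes by all-gene scaling, while scaling to the Sertoli markers ended all 3 calls and turned the sign of Kitl. Gdnf stood at 3.41, 4.26 and 5.25 RPKM in mutants and 2.52, 2.48 and 2.65 RPKM in controls, a 1.7-fold difference (log2 fold change 0.77, SE 0.159, edgeR quasi-likelihood test, Benjamini-Hochberg adjusted p = 0.00641). The groups did not overlap, and the mutants spread more widely than the controls. Wnt5a stood at 6.58, 7.16 and 7.47 RPKM against 4.72, 5.06 and 3.9 RPKM (log2 fold change 0.64, SE 0.0958, adjusted p = 0.00137). Kitl stood at 44.5, 49.9 and 46 RPKM against 27.6, 37.6 and 38.9 RPKM, with a log2 fold change of 0.44 (SE 0.124, adjusted p = 0.0244) that turned to -0.03 when libraries were scaled to the Sertoli markers. Its call was also lost without Morc1tg/tg replicate 2 (adjusted p = 0.0753) or 3 (0.0536). With the Sertoli scaling Gdnf was at 0.28 (adjusted p = 0.243) and Wnt5a at 0.17 (adjusted p = 0.38).

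The 7 members that were not called at P14.5 overlapped between groups. Cxcl12 had 13, 9.68 and 12.6 RPKM in mutants and 10.2, 10.7 and 8.85 RPKM in controls (log2 fold change 0.25, and -0.19 with the Sertoli scaling). Csf1, called at P10.5, had 7.88, 4.7 and 5.65 against 6.93, 4.88 and 4.51 RPKM, and in each group 1 library stood above the other two. The summed macrophage list, at 41.4 to 72.7 RPKM in mutants and 38.8 to 60.9 RPKM in controls, overlapped too. Wnt6 had 25.5, 33.6 and 44.3 against 21.8, 37.6 and 24.1 RPKM. Inhba, at 0.719 to 1.59 against 0.544 to 0.978 RPKM, and Fgf2, at 0.596 to 0.921 against 0.779 to 1.05 RPKM, rested on 21 to 82 reads a library. Over all 15283 genes, 14.8% were called higher and 20.1% lower, beside 3 and 0 of 10 members, with median log2 fold changes of 0.29 over members and 0.01 over all genes. Scaled to Sertoli markers, the medians were -0.17 and -0.45, 65 genes were higher and 7748 lower, and the single member called was Fgf2, lower (-0.78, adjusted p = 0.0415). All 9 Sertoli markers were called higher at this age (summed 4740 to 6040 against 3640 to 4150 RPKM), 4 of 5 germ cell markers lower (252 to 280 against 433 to 523 RPKM), and the summed pachytene list was 1.73 to 2.29 against 31.7 to 97.3 RPKM. Their part in these differences was not tested.

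Of 32 receptors at P14.5, 7 were called higher, among them Gfra1 (0.45, adjusted p = 0.0155) and Lifr (0.47, adjusted p = 0.00398), and Fgfr3 alone was lower (-0.67). Kit had a log2 fold change of -0.07 and was not called. Of 13 antagonists and partners 6 were higher and none lower, including the inhibin subunits Inha (0.44) and Inhbb (0.45), whose products pair with each other or with that of Inhba. Of 17 responsive genes 6 were higher, among them the BMP feedback genes Smad6 (0.77) and Smad7 (0.68) and the FGF feedback genes Dusp6 (0.24) and Spry2 (0.41), and Id4 was lower (-0.71).

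Whether the Morc1 difference itself changed between P10.5 and P14.5 was tested as an interaction in edgeR. Of the members, Wnt5a alone passed: its mutant difference was larger at P14.5 by 0.43 on the log2 scale (SE 0.12, 95% interval 0.18 to 0.69, adjusted p = 0.0384), beside 8.22% of 15657 genes called in either direction. With the Sertoli scaling it was 0.07 (adjusted p = 0.76), and it missed the threshold when any of 6 libraries was left out, with adjusted p up to 0.0962: Morc1tg/tg replicates 2 and 3 of P10.5 and 3 of P14.5, Morc1tg/+ replicate 3 of P10.5 and of P14.5, and the wild type library. For Gdnf the difference between ages was 0.41 (95% interval 0 to 0.83, adjusted p = 0.213), and for Cxcl12 and Csf1, called at P10.5 only, it was -0.22 (-0.51 to 0.07) and -0.26 (-0.73 to 0.22), so a difference between the ages was not shown for them.

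Between P10.5 and P14.5 in control testes of the Morc1 line, 6 of the 10 members were lower at the later age and none was called higher, though Kitl and Cxcl12 turned sign when libraries were scaled to the Sertoli markers. This comparison uses the same control libraries as both Morc1 comparisons, so its values are not independent of them. Inhba, the activin subunit, went from 4.12, 2.86 and 3.6 RPKM to 0.881, 0.978 and 0.544 RPKM, 4.38-fold lower (log2 fold change -2.13, SE 0.211, edgeR quasi-likelihood test, Benjamini-Hochberg adjusted p = 2.26e-05). Wnt6 went from 73.1, 72.8 and 75.3 RPKM to 21.8, 37.6 and 24.1 RPKM (-1.41, SE 0.162, adjusted p = 5.55e-05), and Wnt5a from 12, 10.6 and 11.6 RPKM to 4.72, 5.06 and 3.9 RPKM (-1.33, SE 0.0859, adjusted p = 2.28e-06). Gdnf went from 6.13, 6.73 and 6.14 RPKM to 2.52, 2.48 and 2.65 RPKM (-1.32, SE 0.0858, adjusted p = 2.35e-06). For these 4 genes no library of P14.5 reached any of P10.5, and each was still called lower, by -1.48 to -0.67, when scaled to the Sertoli markers.

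Kitl was lower at P14.5 by -0.53 (SE 0.118, adjusted p = 0.00332) and Cxcl12 by -0.47 (SE 0.0781, adjusted p = 0.000592), but with the Sertoli scaling these values turned to 0.12 and 0.19. Bmp4 stood at 3.19 to 3.89 RPKM at P14.5 against 3.67 to 4.07 RPKM (-0.19, adjusted p = 0.206, turning to 0.47 with adjusted p = 0.00626 under that scaling), and Lif and Csf1, at 0.23 and 0.19 and not called, became called higher (0.88 and 0.86). Over 15395 genes, 29.6% were called higher and 29.2% lower, beside 0 and 6 of 10 members. The median was -0.5 over members and 0 over all genes, and with the Sertoli scaling 0.15 and 0.66, with 11935 genes higher and 708 lower. Of 9 Sertoli markers 7 were called lower at P14.5, Amh the most (-1.99), while Cldn11 was called higher (0.26) and Clu, at 0.1, was not called. Peritubular and stromal markers were called lower in 7 of 9 cases and endothelial ones in 2 of 6. Leydig markers were lower in 2 of 6 and higher in 1, and macrophage markers were higher in 5 of 6. All 5 early meiosis markers were higher (summed 331 to 474 against 70.2 to 75.5 RPKM). The part of these lists in the ligands' decrease was not tested. Receptors were called lower in 19 of 32 cases, among them Gfra1 (-0.77) and Ret (-0.52), and higher in 5, among them Cxcr4 (1.15), Cxcr7 (1.31), Fgfr3 (0.91) and Csf1r (0.54). Of 13 antagonists and partner subunits 9 were lower and 3 higher, and of 17 responsive genes 10 were lower, among them Lhx1 (-1.88) and Bcl6b (-1.07), which respond to GDNF, and 3 higher.

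**Figure D2:**
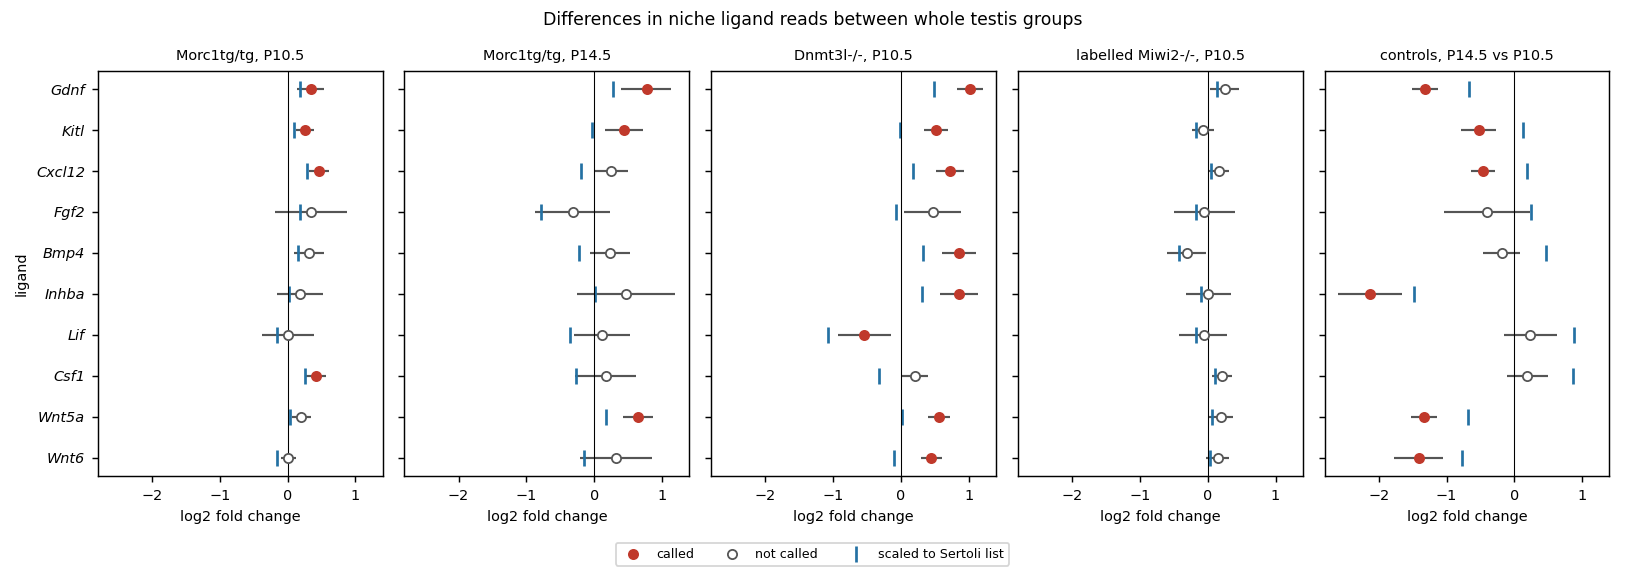
Log2 fold changes of the 10 ligands in 5 whole testis comparisons, on 1 common axis, with 95% intervals. Filled red points passed an adjusted p of 0.05, open points did not, and blue ticks give the value when libraries were scaled to the Sertoli markers: in Dnmt3l-/- testes this moves Gdnf from 1.02 to 0.48 and turns Kitl from 0.52 to -0.02 and Wnt6 from 0.44 to -0.1, at P14.5 it turns Kitl of Morc1tg/tg from 0.44 to -0.03, and with age it turns Kitl and Cxcl12 to 0.12 and 0.19.

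In Dnmt3l-/- testes at P10.5, 7 members were higher and Lif was lower than in the 6 controls, with Kitl and Wnt6 turning sign when libraries were scaled to the Sertoli markers. Gdnf showed the largest difference. It stood at 11.2, 13 and 12 RPKM in Dnmt3l-/- testes, at 5.97, 5.99 and 7.23 RPKM in wild type and at 5.35, 5.77 and 6.44 RPKM in heterozygous testes, 2.03-fold higher (log2 fold change 1.02, SE 0.0876, edgeR quasi-likelihood test, Benjamini-Hochberg adjusted p = 2.57e-06). Its lowest mutant value was well above the highest control. Bmp4 stood at 3.43, 3.87 and 3.7 RPKM against 1.79 to 2.42 RPKM (median 2.09) in controls (log2 fold change 0.86, SE 0.116, adjusted p = 7.67e-05), and Inhba at 4.28, 4.95 and 4.81 RPKM against 2.08 to 3.31 RPKM (0.86, SE 0.131, adjusted p = 0.000183). Neither overlapped. Gdnf and Bmp4 were called higher under each of 17 alternatives, the Sertoli scaling included (0.48 and 0.32).

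Cxcl12 stood at 28, 27.5 and 22.2 RPKM in Dnmt3l-/- testes against 14.4 to 18.6 RPKM in controls (log2 fold change 0.72, SE 0.0972, adjusted p = 7.77e-05), and Wnt5a between 13.1 and 16.3 RPKM against 9.6 to 11 RPKM (0.56, SE 0.0727, adjusted p = 5.46e-05). With the Sertoli scaling the log2 fold changes of Cxcl12, Wnt5a and Inhba fell short of a call, at 0.18, 0.01 and 0.31 (adjusted p = 0.148, 0.905 and 0.0787). Kitl stood at 81.6, 85.6 and 82.3 RPKM against 52.9 to 68.6 RPKM, with a log2 fold change of 0.52 (SE 0.0808, adjusted p = 0.000218) that turned to -0.02 with that scaling. Wnt6 stood at 82.7, 90.5 and 83.5 RPKM against 56.4 to 73.8 RPKM, with a log2 fold change of 0.44 (SE 0.0719, adjusted p = 0.00029) that turned to -0.1. In all 4 of these genes the mutant libraries lay above every control.

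Lif, the ligand of LIFR, went the other way. It stood at 0.265, 0.311 and 0.349 RPKM in Dnmt3l-/- testes (44, 56 and 67 reads) and at 0.467, 0.421 and 0.582 RPKM in wild type and 0.527, 0.42 and 0.37 RPKM in heterozygous testes, a log2 fold change of -0.54 (SE 0.178, adjusted p = 0.0225). The groups did not overlap, with the lowest control just above the highest mutant. The call was lost without Dnmt3l-/- replicate 1 (adjusted p = 0.0945) or 2 (0.062), against heterozygous controls alone (0.122) and against the 2 controls with under 1 RPKM of epididymis markers (-0.48, adjusted p = 0.16). Those 2 controls were heterozygous replicates 1 and 3, so the last fit uses part of the heterozygous set and is not independent of it. Fgf2, at 0.999, 1.26 and 1.19 RPKM against 0.582 to 1.04 RPKM (adjusted p = 0.0541), and Csf1, at 4.69, 5.35 and 5.77 RPKM against 4.18 to 5.32 RPKM (adjusted p = 0.0567), did not pass. Csf1 turned with the Sertoli scaling from 0.21 to -0.33, a call on the lower side (adjusted p = 0.00455).

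Over 15665 genes, 24.9% were called higher and 29% lower in Dnmt3l-/- testes, beside 7 and 1 of the 10 members, with a median log2 fold change of 0.54 over the members and 0 over all genes. Scaled to the Sertoli markers, these medians were 0 and -0.54, 252 genes were higher and 11262 lower, and 2 members were called in each direction. Against the 2 controls with few epididymis markers, both heterozygous, the 7 higher members were still called and Csf1 joined them (0.35, adjusted p = 0.0477). Of 9 Sertoli markers 7 were called higher (summed 4870 to 5400 against 3290 to 4310 RPKM), and all 5 germ cell markers were lower (132 to 152 against 326 to 422 RPKM). Peritubular and stromal markers were called higher in 5 of 9 cases and lower in 1. Endothelial markers were higher in 3 of 6 cases, and Leydig and macrophage markers in 1 of 6 each. Their part in the ligands' differences was not tested.

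Of 32 receptors in Dnmt3l-/- testes, 14 were higher and 4 lower. Kit was lower (log2 fold change -1.85, adjusted p = 3.48e-06), at 5.23 to 9.03 RPKM against 22.8 to 31.8 RPKM in controls, while its ligand gene Kitl was higher by all-gene scaling and at -0.02 by the Sertoli scaling. The activin and BMP receptors Acvr2b (-1.52) and Bmpr1b (-0.74) and the FGF receptor Fgfr3 (-1.32) were lower too. Gfra1 was higher (0.55, adjusted p = 0.000945) and Ret, at 0.21, was not called. Of 13 antagonists and partners, 6 were higher, among them Inha (0.81), Inhbb (0.63) and the BMP antagonist Chrd (0.57), and 3 lower, the Wnt antagonists Sfrp2 (-0.47), Wif1 (-0.54) and Dkk3 (-0.32). Of 17 responsive genes 11 were higher, among them Id3 (1.04), Smad6 (1.56) and Etv5 (0.64), and 3 were lower: Lef1 (-2.8), Axin2 (-0.63) and Nkd1 (-0.61), all of the Wnt pathway. In controls of the Morc1 line at P10.5, Lef1 (2.72) and Nkd1 (0.97), but not Axin2, were called higher in sorted germ cells than in testis. The part of germ cell content in the lower values was not tested. Of 16 related ligands, 4 were higher, among them Pdgfa (0.75) and Igf1 (0.6), and 5 lower, among them Fgf8 (-1.56) and Bmp8b (-1.44).

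Differences in Dnmt3l-/- and in Morc1tg/tg testes of P10.5, each against the controls of its own line, were set against each other as an interaction. The Dnmt3l difference was larger for Gdnf by 0.73 (SE 0.139, adjusted p = 0.00209), for Inhba by 0.72 (SE 0.217, adjusted p = 0.0301), for Bmp4 by 0.59 (SE 0.155, adjusted p = 0.016), for Wnt6 by 0.48 (SE 0.0952, adjusted p = 0.00275) and for Wnt5a by 0.41 (SE 0.111, adjusted p = 0.0176) on the log2 scale. That is 5 of 10 members, beside 17.6% of 15902 genes called in either direction, and the median over members was 0.36 against 0.03 over all genes. With the Sertoli scaling all 5 calls were lost (adjusted p from 0.0815 to 0.93), Wnt5a turned to -0.02, and Lif (-0.92) and Csf1 (-0.57) were called instead. The call of Inhba was also lost when any of 6 libraries was left out (adjusted p = 0.0558 to 0.105), namely Dnmt3l-/- replicates 1 and 2, Morc1tg/tg replicates 2 and 3, Morc1tg/+ replicate 3 and the wild type library of the Morc1 line. That of Wnt5a was lost without any of 4 (adjusted p = 0.0514 to 0.0591), Dnmt3l-/- replicates 1 and 2, Morc1tg/tg replicate 2 and the same wild type library. For Kitl and Cxcl12 the interaction was 0.31 each (95% intervals 0.07 to 0.55 and 0.01 to 0.61, adjusted p = 0.0644 and 0.141). Line, strain and batch cannot be told apart in this contrast.

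In testes labelled Miwi2-/-, 0 of 10 members were called in edgeR, where 0.725% of 15997 genes were called higher and 0.506% lower. The lowest adjusted p-values among the members in edgeR, those of Csf1, Gdnf, Bmp4 and Cxcl12, ran from 0.132 to 0.236. DESeq2 called 0 members too, though it gave Gdnf (log2 fold change 0.24) no adjusted p, so Gdnf could not be called there. A fit blocked by replicate number called 5 members higher and 1 lower, beside 2216 and 2287 of all genes. With 2 numbers it cannot be said whether they pair the samples. Csf1 stood at 7.05 and 6.88 RPKM against 5.94 and 5.95 RPKM (log2 fold change 0.21, 95% interval 0.06 to 0.36). Gdnf stood at 4.94 and 4.61 RPKM against 4.23 and 3.69 RPKM (0.25, 0.04 to 0.46), and Bmp4 at 3.66 and 4.04 RPKM against 4.2 and 5.25 RPKM (-0.31, -0.6 to -0.03). Kitl overlapped, at 40.2 and 37.8 against 40.1 and 40.8 RPKM, with an interval of -0.23 to 0.09. With 2 mice a group these intervals allow changes of the size seen in Morc1tg/tg testes for some members, so a lack of change is not shown. When heterozygous replicate 1 was left out, Bmp4 was called (-0.48, adjusted p = 0.036), in a fit where the 1 heterozygous library is assumed to vary like the other group. No receptor of 32 was called, and of the responsive genes Id1 alone was higher (0.53, adjusted p = 0.00996).

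Sorted germ cells of Morc1tg/+ mice at P10.5 were compared with the 3 whole testis controls of that age to see which ligands the germ cells themselves hold. Of the 10 members, 6 had at least 10 reads in 3 or more of the 4 sorted libraries. Of these 6, Gdnf (log2 fold change -4.11), Kitl (-4.54), Csf1 (-2.46), Wnt5a (-5.17) and Wnt6 (-5.49) were lower in the sorted cells (edgeR quasi-likelihood test, Benjamini-Hochberg adjusted p = 5.44e-15 to 1.04e-07), under all 10 alternatives run, beside 42.9% of 14604 genes called lower and 40.4% higher. Cxcl12, Fgf2, Inhba and Lif passed the filter on low counts only through their level in testis, so a lower value was largely fixed by the filter, and their values (-6.43, -1.06, -6.42 and -2.28) are given as a description. Inhba had 0, 0, 3 and 0 reads in the 4 sorted libraries, against 183 to 261 reads in whole testis. With reads pooled over libraries and scaled to CPM, counts relative to all reads on genes, Wnt6 was 42.5 times higher in testis than in sorted cells (95% exact interval for counting error only, 35.9 to 50.6), Wnt5a 34 times (27.6 to 42.3), Kitl 22 times (20.2 to 24.2), Gdnf 16.4 times (12.4 to 22) and Csf1 5.24 times (4.42 to 6.26). The summed Sertoli list was 107 to 174 RPKM in these sorted libraries and 4360 to 4540 RPKM in testis. Most of the testis sum was Clu and Aard, which averaged 2290 and 1180 RPKM there and 55.6 and 27.8 RPKM in sorted cells. All 9 Sertoli markers were called lower in the count fit, from 5.12-fold (Sox9), 6.2-fold (Rhox8) and 8.22-fold (Wt1) to 46-fold (Amh). The summed macrophage list was 4.18 to 5.06 RPKM in sorted cells and 27.2 to 30.1 RPKM in testis. Of its 6 markers Emr1 and C1qa were at 0 in all 4 sorted libraries, C1qb, Cd14 and Mrc1 averaged 0.0305, 0.154 and 0.479 RPKM, and Cd68, at 3.97 RPKM against 4.14 RPKM in testis, made up most of the sum and was called higher in the count fit (0.64). The part of RNA from other cells in the ligand reads of the sorted cells was not tested.

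Bmp4 was the exception among the 6 members with enough reads in the sorted libraries. It had 125, 103, 62 and 37 reads in the sorted libraries, or 14, 11.3, 7.59 and 4.95 CPM. Pooled, this made 9.72 CPM in sorted cells and 9.15 CPM in testis, a testis to germ cell ratio of 0.941 (0.826 to 1.08), and the fitted log2 fold change was -0.02 (95% interval -0.57 to 0.53, adjusted p = 0.945). By RPKM the same libraries stood lower, at 3.65, 2.75, 1.85 and 1.19 RPKM against 3.67 to 4.07 RPKM in testis, because the authors' RPKM amounts to 0.563 to 0.608 of a value made from reads on genes alone in these sorted libraries and 0.996 to 1 of it in the testis controls. Fgf2, which was not called either, had 7, 9, 1 and 12 reads in the sorted libraries, and its pooled testis to germ cell ratio was 1.98 (1.32 to 3.07).

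Across the stages of sorted cells Bmp4 was the highest member in every group of libraries. It stood at 4.38 and 4.52 RPKM in Morc1tg/+ cells of E16.5, at 30.2 and 28.5 RPKM at E18.5 and at 0.648, 3.19 and 3.88 RPKM at P2.5. The values of E18.5 lay above those of every other stage. In Morc1tg/tg cells it stood at 4.29 and 3.03 RPKM at E16.5, 18.1 and 22.4 RPKM at E18.5 and 7.46 and 3.86 RPKM at P2.5. No other member passed 3.29 RPKM in any sorted library, which was the value of Gdnf in an E18.5 Morc1tg/+ library. These values across stages are a description and were not tested.

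**Figure D3:**
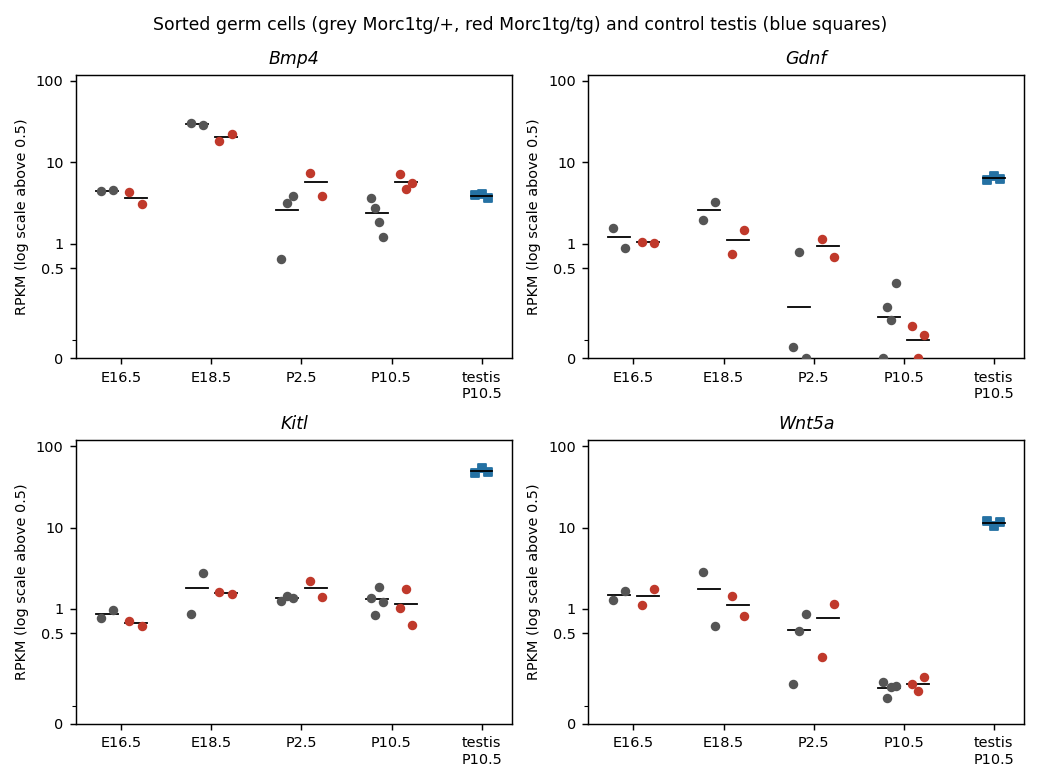
Levels of Bmp4, Gdnf, Kitl and Wnt5a in sorted germ cells by stage and genotype, in RPKM, on an axis that is linear below 0.5 and logarithmic above, with 1 dot a library (grey Morc1tg/+, red Morc1tg/tg), blue squares for the 3 control testes of P10.5 and a line at each mean. Bmp4 stands at 18.1 to 30.2 RPKM at E18.5, above its values at the other stages.

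Sorted cells of P10.5 from Morc1tg/tg mice were compared with those of Morc1tg/+ mice after the values of Bmp4 had been seen. Bmp4 stood at 7.12, 4.69 and 5.51 RPKM in Morc1tg/tg and at 3.65, 2.75, 1.85 and 1.19 RPKM in Morc1tg/+ cells, without overlap. Its log2 fold change was 1.21 (SE 0.244, edgeR quasi-likelihood test, Benjamini-Hochberg adjusted p = 0.00141), and it was called under all 11 alternatives, between 1.01 and 1.46. The adjusted p does not account for a comparison chosen after these values were seen. The alternatives refit the same libraries, so the difference is given as a description. Of 7 members tested, this was the one called, beside 6.43% of 14019 genes higher and 5.79% lower. Gdnf (-1.21), Wnt6 (-0.72), Kitl (-0.3), Cxcl12 (0.31), Csf1 (-0.17) and Wnt5a (0.08) did not pass, and Fgf2, Inhba and Lif had too few reads to be tested. Markers moved in both directions between these sorted cells. Of 9 Sertoli markers, 4 were called lower in Morc1tg/tg (summed 67.8 to 134 against 107 to 174 RPKM), and of 7 peritubular and stromal markers tested 2 were higher, Pdgfra (0.93, adjusted p = 0.000352) and Col1a1 (0.34, adjusted p = 0.0186), both without overlap, while Dcn (1.25), Acta2 (-0.87), Cnn1 (-0.82), Myh11 (-0.58) and Tagln (-0.5) were not called and the median of the list was -0.5. Its summed level was 14.7 to 17.6 against 12.4 to 13.9 RPKM, of which Col1a1 made up 9.26 against 6.93 RPKM on average, and Tcf21 was at 0 in both groups. Of 5 germ cell markers Ddx4 (0.23) and Dnd1 (0.48) were higher, and of 5 markers of undifferentiated spermatogonia Zbtb16 (0.41) and Lin28a (0.4), with that list at 111 to 135 against 91.9 to 95.9 RPKM. RPKM itself runs higher in the Morc1tg/tg libraries here. It amounts to 0.604 to 0.653 of a value made from reads on genes alone in Morc1tg/tg and to 0.563 to 0.608 in Morc1tg/+ cells. The log2 fold changes are free of this. Of 3 markers of differentiating spermatogonia 2 were lower, and of 5 early meiosis markers 3. Their part in the difference of Bmp4 was not tested. In whole testis of the same age Bmp4 had a log2 fold change of 0.32 with an adjusted p of 0.0543. Of 32 receptors in the sorted cells, 6 were higher in Morc1tg/tg, Fzd2 (1.02), Fzd7 (0.49), Gfra1 (0.47), Lifr (0.46), Ret (0.35) and Il6st (0.34), and 3 lower, Kit (-0.55), Fgfr3 (-0.53) and Bmpr2 (-0.4).

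Of the 32 receptors of the members, 10 were called higher and 18 lower in sorted cells than in testis at P10.5 (40.4% and 42.9% over all genes tested), of which all 10 and 17 also had at least 10 reads in 3 or more libraries of the lower group. Those of GDNF were higher, Ret by 1.93 and Gfra1 by 1.74 on the log2 scale, and so was Kit (1.11), while Gdnf and Kitl themselves were at -4.11 and -4.54. Acvr2b (1.98), Fgfr3 (1.75), Bmpr1b (1.35), Lrp5 (1.07) and Bmpr2 (0.95) were higher too. Cxcr7 (-3.7), Fzd1 (-3.42) and Ror2 (-3) were lower, as was Cxcr4 (-0.82), Lifr (0.2) was not called, and Csf1r (-4.12) was tested only through its level in testis. Of the 12 antagonists and partners tested, 8 that had reads in both groups were lower, among them Inha (-4.99) and Inhbb (-5.39), and Fst (2.37), which binds activin, and Sfrp2 (1.13) were higher. Of 14 related ligands, 6 that had reads in both groups were higher in the sorted cells, among them Nrtn (3.21), Fgf9 (3.14) and Bmp8b (2.07), and 3 lower, among them Vegfa (-1.25). Of 17 responsive genes, 9 were higher in the sorted cells, among them Lef1 (2.72), Etv5 (1.25) and Nkd1 (0.97). Another 5 were lower, among them Id2 (-4.47), and all of these had reads in both groups. The calls of Chrd, Bmp8a, Igf1 and Wnt11 rested on the group where each is high.

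**Figure D4:**
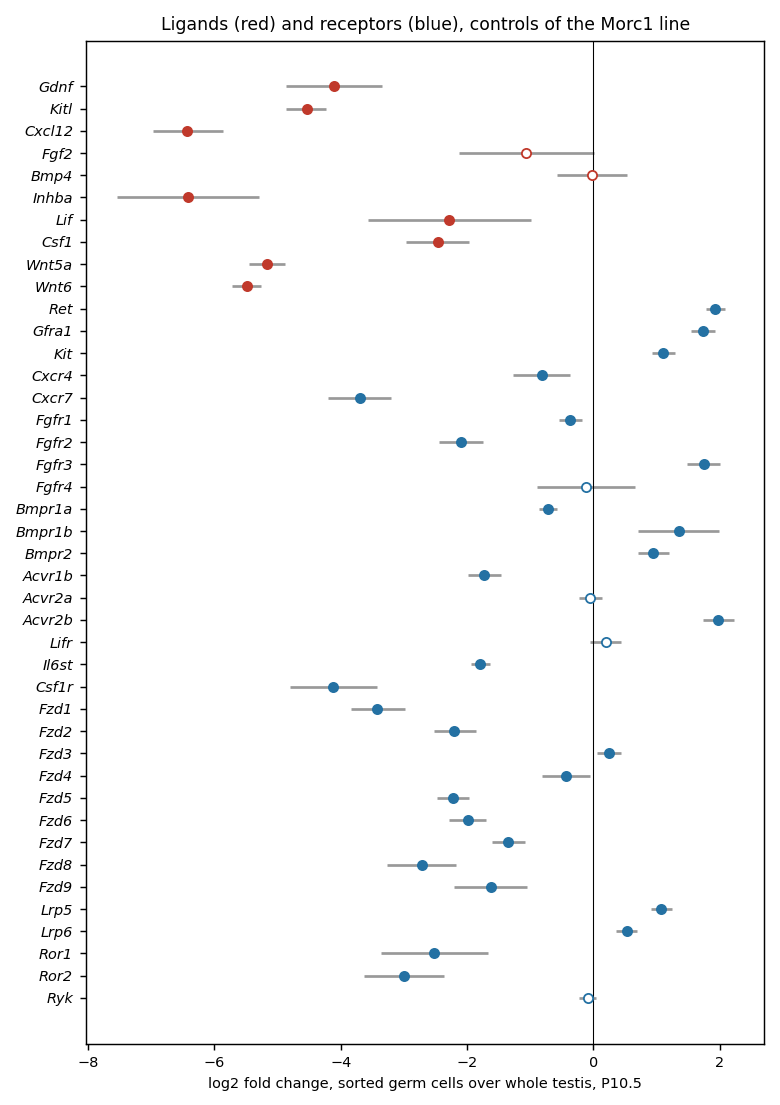
Log2 fold changes, with 95% intervals, of the 10 ligands (red) and 32 receptors (blue) in sorted Morc1tg/+ germ cells over whole testis controls at P10.5, with open points for genes that were not called. Gdnf, Kitl, Csf1, Wnt5a and Wnt6 lie between -5.49 and -2.46, Cxcl12, Fgf2, Inhba and Lif were tested only through their level in testis, and Ret, Gfra1 and Kit lie between 1.11 and 1.93.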

How the data were processed

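RNA-Seq of 27 whole testes and 20 sorted germ cell samples was used. The authors trimmed reads to 50 bp, kept those mapping to 1 place with up to 2 mismatches, and deposited raw read counts per gene on mm9. Beside each count the authors deposited RPKM values, counts divided by exon length and mapped reads. HTSeq, Bowtie and SAMtools are named, without versions, in the submitters' processing notes. The small RNA and genomic libraries of the series were not used here.

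The counts were scaled by TMM, filtered with filterByExpr and fitted in edgeR 4.0.16 (R 4.3.3) by quasi-likelihood, with Benjamini-Hochberg adjustment across every gene in the fit and a threshold of 0.05. DESeq2 1.42.0, relative log expression scaling, factors from the median ratio over the Sertoli markers, no filter, a replicate block, other control sets and each library left out were alternatives. Tests were tried on simulated data. No 2 libraries of a group were copies (38 pairs, lowest chi-square per gene 4.52).

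All members were named, with genes of receptor, antagonist, responsive and related ligand lists, and marker lists, where called or partnered with a member, and the gene nearest each member by correlation. Of the lists, Rhox5 and Fzd10 were not listed under those symbols. The members and lists were chosen with earlier results of these data known. The control libraries kept by epididymis markers, and the Morc1 comparison of sorted P10.5 cells, were added after the data were seen.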

Additional observations from a re-analysis of the deposited data

Results flagged for a closer look

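In the sorted Morc1tg/+ cells of P10.5, 1 of 4 libraries held Inhba at 0.0947 RPKM (3 reads) and the other three held none, which put it past the limit used for a gap within a group. With 3 reads against counts of 0 this does not show that the library differs. Of 10 member and group combinations large enough to be examined for such a library, this was the one found. A gene with reads in only 1 of 4 libraries passes this limit whatever the number of reads, so no chance rate is given.

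Wnt5a differed in its Morc1tg/tg difference between ages, by 0.43 on the log2 scale (adjusted p = 0.0384). Between lines at P10.5, the Dnmt3l-/- difference exceeded the Morc1tg/tg difference by 0.73 for Gdnf, 0.59 for Bmp4, 0.72 for Inhba, 0.41 for Wnt5a and 0.48 for Wnt6. These 6 differences were tested as interaction terms in edgeR, and all were lost when libraries were scaled to the Sertoli markers.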

How the results depend on the processing

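Of the members' values under the alternatives other than leaving out a library, 391 kept direction and side of the threshold, 18 lost a call in the same direction, 22 gained one and 27 changed sign, with or without losing a call. With each library left out, 637 kept both, 27 lost a call in the same direction, 12 gained one and 20 changed sign.

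Scaling to the Sertoli markers was run for the whole testis comparisons. With it, the number of members called became 2 (Morc1 at P10.5), 1 (Morc1 at P14.5), 4 (Dnmt3l), 0 (Morc1 by age) and 2 (Dnmt3l by Morc1), and the number of genes became 4468 (Morc1 at P10.5), 1434 (Miwi2), 2388 (Morc1 by age) and 7211 (Dnmt3l by Morc1). The signs that turned were Lif -0.16 and Wnt6 -0.16 (Morc1 at P10.5), Kitl -0.03, Cxcl12 -0.19, Bmp4 -0.23, Lif -0.36, Csf1 -0.27 and Wnt6 -0.15 (Morc1 at P14.5), Kitl -0.02, Fgf2 -0.08, Csf1 -0.33 and Wnt6 -0.1 (Dnmt3l), Inhba -0.1 (Miwi2), Kitl 0.12, Cxcl12 0.19, Fgf2 0.24 and Bmp4 0.47 (age), Kitl -0.18, Inhba -0.09, Lif -0.27 and Wnt6 -0.06 (Morc1 by age), and Kitl -0.11, Cxcl12 -0.11, Fgf2 -0.24 and Wnt5a -0.02 (Dnmt3l by Morc1). The alternative sets the middle of the Sertoli list's ratios equal in all libraries by construction, and the cause was not tested further. The list did not move as 1 block. By all-gene scaling its log2 fold changes ran from -1.99 (Amh) to 0.26 (Cldn11) with age. In Dnmt3l-/- testes they ran from -0.07 (Cldn11) to 1.1 (Amh), so values under this scaling depend on which markers are listed.

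With the replicate block, 2 members and 1200 genes were called for Morc1 at P10.5, 6 members and 4503 genes for Miwi2 and 1689 genes for Dnmt3l by Morc1, and Csf1 of the sorted P10.5 cells turned to 0.07. Same-number deviations correlated between -0.22 and -0.05 for Morc1 at P10.5, -0.11 and 0.35 at P14.5 and -0.46 and 0.01 for Dnmt3l. With so few libraries this does not settle whether a number pairs the samples. For Miwi2 they correlated at 0.32, and 2 numbers are too few to say whether they pair the samples. Heterozygous controls alone gave 2 members for Morc1 at P10.5. DESeq2 gave 355 genes for Miwi2. No filter turned Inhba to -0.01 there. The Dnmt3l controls low in epididymis markers gave 5348 genes. The cause of these changes was not tested.

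With each library left out, members called ranged from 2 to 5 (Morc1 at P10.5), 0 to 1 (Miwi2), 0 to 2 (Morc1 by age) and 3 to 6 (Dnmt3l by Morc1). For Miwi2 each such fit leaves 1 library in an arm, which is assumed to vary like the other arm. Genes ranged from 922 to 2352 (Morc1 at P10.5), 3517 to 5001 (Morc1 at P14.5), 340 to 952 (Miwi2), 772 to 1746 (Morc1 by age) and 1753 to 4021 (Dnmt3l by Morc1). Signs turned within ranges of -0.06 to 0.08 for Lif and -0.02 to 0.04 for Wnt6 (Morc1 at P10.5), -0.03 to 0.37 for Csf1 (Morc1 at P14.5), -0.13 to 0.13 for Inhba, -0.15 to 0.02 for Fgf2 and -0.18 to 0.05 for Lif (Miwi2), -0.01 to 0.3 for Csf1 (age), -0.28 to 0.17 for Bmp4 (sorted cells over testis), -0.04 to 0.53 for Inhba and -0.15 to 0.06 for Bmp4 (Morc1 by age), -0.17 to 0.39 for Fgf2 (Dnmt3l by Morc1), and -0.53 to 0.21 for Csf1, -0.38 to 0.7 for Cxcl12 and -0.09 to 0.23 for Wnt5a (sorted P10.5 cells). Depth limits Fgf2 and Lif in testis and all members but Bmp4 and Kitl in sorted cells.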
